A study of Sus scrofa with 23 samples.

Results

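The first cleavage of cloned pig embryos was followed in 4 libraries, a 1-cell and a 2-cell library from each of 2 clone groups, out of the 23 oocyte and embryo libraries of the series. NT-D embryos carry nuclei of fibroblasts grown from the ear of a Duroc boar, and NT-LW embryos those of a boar of the Chinese breed Laiwu, both boars aged 1 year, so that each breed is represented by the cells of 1 animal. In both groups the recipients were enucleated oocytes from slaughterhouse ovaries matured in vitro, and the embryos were cultured in PZM3 medium under low oxygen. Each library was made from polyA RNA of a pool of cloned embryos chosen for good morphology. The in vivo fertilized Duroc embryos (IV-D), flushed from sows and sired by the boar that gave the NT-D donor cells, provide a 1-cell and a 2-cell library outside the clone groups, and the recipient oocyte and the 4-cell libraries give the levels before and after. The deposited table is named as one of differentially expressed genes, so every share over all genes below is a share of a selected table. Genes were read in FPKM, fragments counted for a gene scaled by its length and by the size of the library. With 1 library per condition, no test between stages or between clone groups could be made, and every count below describes these libraries.

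A fully grown oocyte stores the messenger RNA on which the embryo lives until its own genome is switched on. These stored transcripts are silenced or translated according to the length of their poly(A) tail, and they are removed in waves by deadenylases such as the CCR4-NOT complex, which the adaptor BTG4 brings to messages under translation. During cleavage the embryo must also divide on stored cell cycle messages, among them cyclins, mitotic kinases and the ubiquitin ligase that ends mitosis. Because the libraries were made from polyA RNA, a longer tail on the same message and more molecules of it cannot be told apart, and neither can fewer cells or less RNA per cell.

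A gene was counted as lower or higher at the 2-cell stage when log2(FPKM + 1) differed by more than 1 from the 1-cell stage and at least 1 of the 2 libraries held 1 FPKM or more. By this rule 1869 of 7050 genes were lower in NT-D (26.5%) and 173 were higher (2.45%). In NT-LW 306 of 7096 genes were lower (4.31%) and 201 higher (2.83%), so that in either direction 29% of the NT-D genes and 7.14% of the NT-LW genes were counted. FPKM values are shares of a library, and the median log2 difference over tested genes was -0.53 for NT-D, -0.07 for NT-LW and -0.41 for IV-D. When the 6 libraries were scaled to 1 median ratio, which removes this shift, the NT-D step held 675 lower (9.57%) and 885 higher (12.6%) genes, and the NT-LW step 210 lower (2.96%) and 227 higher (3.2%). The excess of lower over higher genes in NT-D was thus present on the deposited scale and absent on the other, and the sets below are given on both.

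The steps of the 2 clone groups had little in common. Across the 6947 genes tested in both groups, which share no library between the 2 steps, Pearson's r between the differences was -0.06. Against the in vivo step, which shares no library with either, r was 0.68 for NT-D and 0.01 for NT-LW. Genes are not independent replicates, and r describes these libraries only. The plot of both steps shows the NT-D differences spread along a horizontal band, with few genes on the diagonal.

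**Figure D1:**
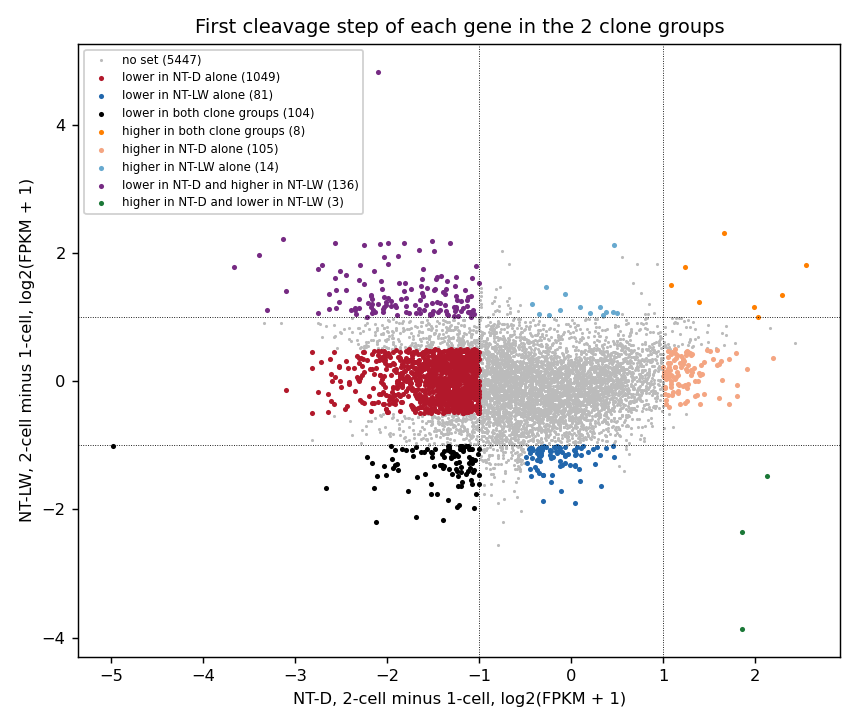
Each point is 1 of the 6947 genes tested in both clone groups, with its 2-cell minus 1-cell difference in log2(FPKM + 1) in NT-D on the x axis and in NT-LW on the y axis. Dotted lines mark differences of -1 and 1, colours mark the gene sets with their number of genes, and the densest coloured block is the 1049 genes lower in NT-D with a difference under 0.5 in NT-LW.

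The clone groups were most alike before and after this step. Of the 6947 genes, 93.5% lay within 1 log2 unit of each other in the 2 clone libraries of 1-cell embryos, 84.1% in those of 2-cell embryos and 97.4% in those of 4-cell embryos. At the 2-cell stage 1065 genes were lower in NT-D than in NT-LW by more than 1, and 42 were higher. At the 4-cell stage these numbers were 141 and 41.

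Of the 1869 genes lower in NT-D, 104 were lower in NT-LW too, which is 5.56% of the NT-D genes and 34.0% of the 306 NT-LW genes. The background is 4.31% of all genes lower in NT-LW and 26.5% lower in NT-D, so as deposited both shares lay slightly above it. After median-ratio scaling 19 genes were lower in both, of 675 in NT-D and 210 in NT-LW. The background there is 2.96% lower in NT-LW and 9.57% lower in NT-D, and neither share lay above it. Of the 1869 NT-D genes as deposited, another 1067 differed by less than 0.5 in NT-LW. A further 253 were lower there by 0.5 or more without reaching the limit, and 309 were higher by 0.5 or more without reaching it. In NT-LW 136 were counted as higher. Of the 201 genes higher in NT-LW, those 136 made up 67.7%, against the background of 26.5% of genes lower in NT-D. Only 8 genes were higher in both groups (0.115% of the genes tested in both), and 3 were higher in NT-D and lower in NT-LW (0.0432%). After scaling the last set held 7 genes, 3 of them on both scales.

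The genes lower in both clone groups were led by genes that include EPSTI1, U2AF1, PSMA7 and PAK1IP1. They numbered 104 (1.5% of the genes tested in both), of which 88 had a symbol, and 19 were also counted after median-ratio scaling. EPSTI1 (chromosome 11, 24116991 to 24216219), a gene named for its induction in epithelium by stroma, stood at 209 FPKM in the NT-D 1-cell library and 60.7 in the 2-cell library, and at 201 and 60.9 in NT-LW. The level was thus 3.45 times lower in NT-D (95% exact interval 3.27 to 3.64) and 3.31 times lower in NT-LW (3.14 to 3.48). These intervals, like all intervals on folds here, come from the recovered fragment numbers and cover counting error only, not the spread between embryos or between libraries.

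U2AF1, whose product recognizes the 3′ splice site, went from 67.9 to 14.6 FPKM in NT-D and from 82.8 to 25.5 in NT-LW. NAT10, an RNA acetyltransferase, was the most abundant of the named genes of this set, at 318 and 85.7 FPKM in NT-D and 330.3 and 126 in NT-LW. PAK1IP1, a factor of ribosome production, stood at 45.3 and 13.4 FPKM in NT-D and at 45.4 and 9.69 in NT-LW. In these genes the 2 clone groups started from like levels and ended at like levels.

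PSMA7, a subunit of the proteasome core, went from 52.7 to 11.4 FPKM in NT-D and from 47.5 to 16.5 in NT-LW. TMEM11, a protein of the mitochondrial inner membrane, and ATAD5, which unloads the sliding clamp PCNA after replication, were the other named genes, with log2 differences of -2.67 and -2.04 in NT-D and of -1.67 and -1.32 in NT-LW. For these 7 genes the log2 difference after median-ratio scaling was between -2.08 and -1.07 in NT-D and between -2.02 and -1.23 in NT-LW. In the in vivo step 62 of the 102 tested genes of the set were lower (60.8%), against 24.6% of all genes tested there.

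The clearest rise shared by both clone groups was that of CLDND1 (chromosome 13), a membrane protein with a claudin domain. It stood at 17.6 FPKM at the 1-cell and 47.7 at the 2-cell stage in NT-D, and at 22.2 and 53.5 in NT-LW, which is 2.70 times higher (2.51 to 2.92) and 2.41 times higher (2.27 to 2.57). The 4-cell libraries held 69.6 and 74.95 FPKM. SAL1, a salivary lipocalin, was at 4.15 and 11.12 FPKM in NT-D and at 3.08 and 13.0 in NT-LW, and at 7.51 and 3.67 FPKM at the 4-cell stage. The other 6 genes of the set had no symbol. After scaling the set held 27 genes, of which 8 were in it on both scales. Of the 8 genes, 5 were higher in the in vivo step too, against 6.59% of all genes.

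**Figure D2:**
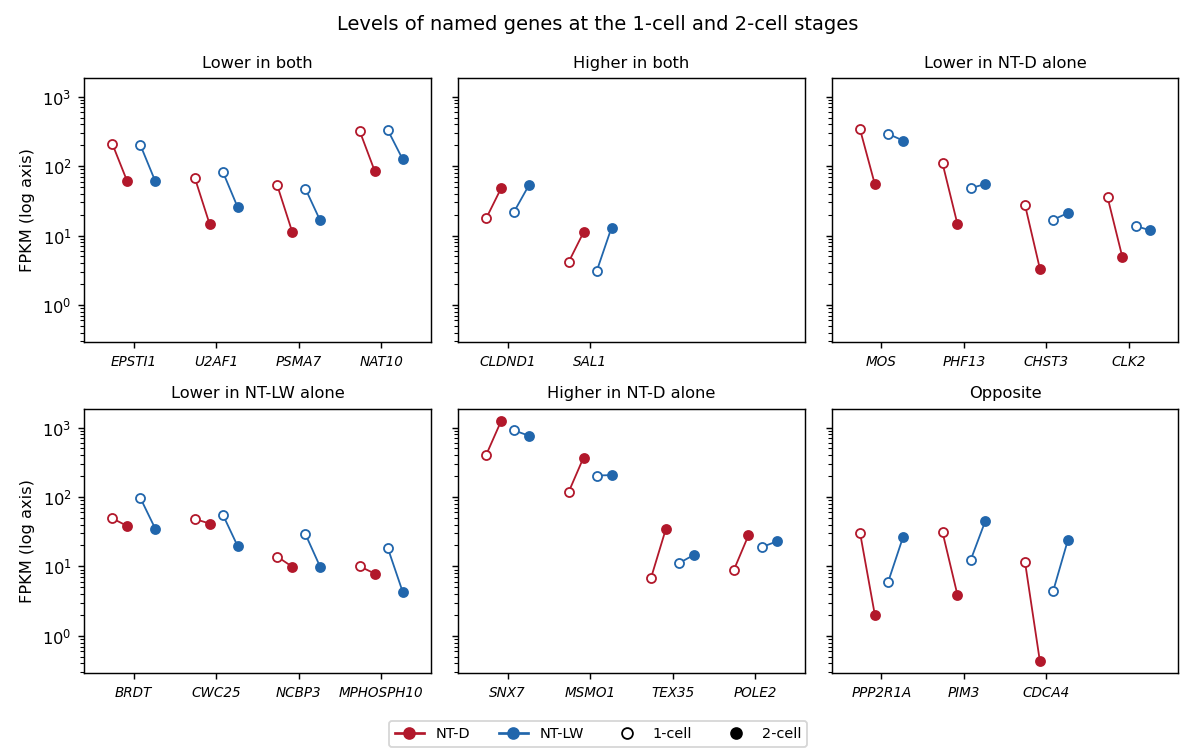
FPKM on a log axis of named genes at the 1-cell stage (open circles) and the 2-cell stage (filled circles) in NT-D (red) and NT-LW (blue), 1 library per circle. Lines of EPSTI1, U2AF1, PSMA7 and NAT10 run down in both colours, those of MOS, PHF13, CHST3 and CLK2 run steeply down in red and stay nearly level in blue, and those of PPP2R1A, PIM3 and CDCA4 run down in red and up in blue.

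Transcripts lower in NT-D alone formed the largest set, 1067 genes of which 1049 were tested in both groups (15.1%). After median-ratio scaling the set held 334 genes, of which 315 were in it on both scales. A call in 1 group and none in the other does not show that the groups differ, and with single libraries that difference was not tested. The set includes MOS (chromosome 4, 75739402 to 75741076), the kinase that keeps the mature oocyte arrested in metaphase. MOS stood at 402 FPKM in the recipient oocyte, 338 in the NT-D 1-cell library and 54.5 in the NT-D 2-cell library, while NT-LW held 291 and 234. The NT-LW level came down to 36.4 FPKM at the 4-cell stage, where NT-D held 53.2. The loss in NT-D was 6.21 times (5.89 to 6.55) and that in NT-LW 1.25 times (1.21 to 1.28).

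PHF13, a chromatin protein with a PHD finger, showed the same course. It went from 109.5 to 14.7 FPKM in NT-D, stood at 48.1 and 55.3 in NT-LW, and the NT-LW 4-cell library held 7.33. CHST3, a sulfotransferase of chondroitin, went from 27.5 to 3.33 FPKM in NT-D and from 16.9 to 21.1 in NT-LW. In NT-LW its 4-cell level was 2.79 FPKM. For these genes the 2-cell libraries of the 2 groups lay apart and the 4-cell libraries close together.

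CLK2, a kinase of splicing proteins, stood at 35.8 and 4.89 FPKM in NT-D and at 13.7 and 11.9 in NT-LW. SLC25A6, an ADP/ATP carrier of mitochondria, stood at 21.8 and 1.66 FPKM in NT-D and at 7.39 and 6.596 in NT-LW, where reads could also belong to the other members of its family. The remaining named genes were AURKAIP1, a protein of the mitochondrial ribosome, PLD6, a mitochondrial surface enzyme used in piRNA production, and the LIM domain protein LMO1, with log2 differences of -2.81, -2.60 and -2.57 in NT-D. In 4 of these 8 genes (SLC25A6, PHF13, CLK2 and LMO1) the NT-D 1-cell level was also above the NT-LW 1-cell level by more than 1 on the log2 scale of FPKM, so the groups did not start from the same level. Both 1-cell libraries helped to choose the genes, and part of this gap follows from the choice.

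Across the whole set the median level was 7.55 FPKM in the recipient oocyte, 11.5 and 3.48 at the 1-cell and 2-cell stages of NT-D, and 4.47 at the 4-cell stage. In NT-LW the median was 8.42 at both early stages to within 0.01 FPKM (8.42 and 8.43), and 5.20 at the 4-cell stage. Between the NT-LW 2-cell and 4-cell libraries, 348 of the 1067 genes were lower by more than 1 (32.6%), against 21.6% of the 6947 genes. The in vivo embryos, at 6.31 and 2.26 FPKM, followed NT-D, and 580 of the 987 genes tested there were lower (58.8%), against 24.6% of all genes. The 1-cell and 2-cell libraries of both clone groups chose the set, so its fall in NT-D and its level course in NT-LW are descriptions. The share lower in the NT-LW 4-cell library starts from 1 of those libraries and in part follows from the choice, while the in vivo libraries were not used in choosing it.

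**Figure D3:**
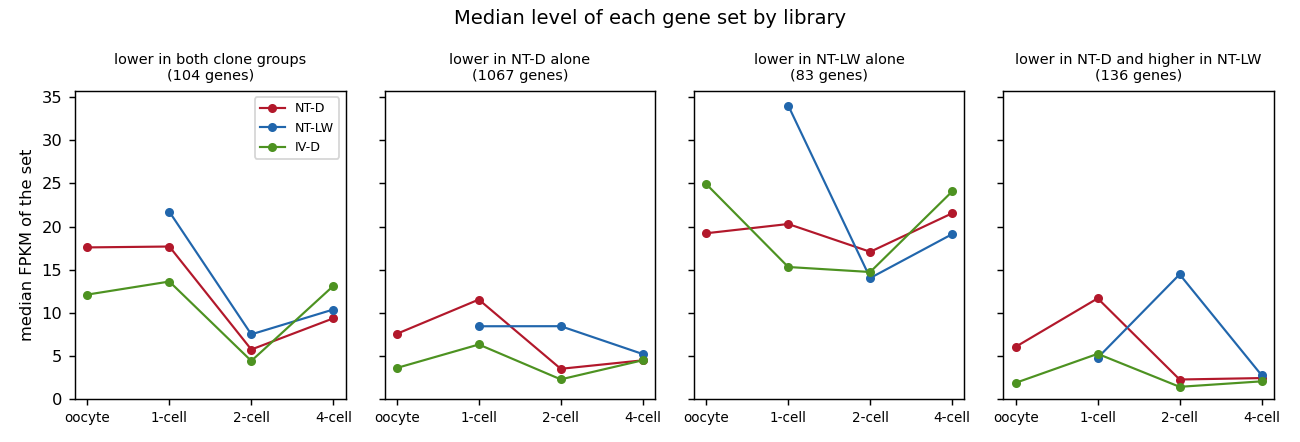
Median FPKM of 4 gene sets (panels, with the number of genes) in the oocyte, 1-cell, 2-cell and 4-cell libraries of NT-D (red), NT-LW (blue, which has no oocyte library of its own) and IV-D (green). In the set lower in NT-D alone the NT-LW line stays at 8.42 and 8.43 FPKM and reaches 5.20 at the 4-cell stage, and in the set lower in NT-D and higher in NT-LW the NT-LW line peaks at 14.4 FPKM.

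Only 83 genes were lower in NT-LW alone, 81 of them tested in both groups (1.17%). After scaling the set held 120 genes, of which 31 were in it on both scales. MPHOSPH10, a protein of the U3 particle that processes ribosomal RNA, stood at 18.4 and 4.31 FPKM in NT-LW and at 10.001 and 7.89 in NT-D. The loss in NT-LW was 4.26 times (3.71 to 4.91). BRDT, a bromodomain protein best known from the testis, stood at 96.8 and 35.1 FPKM in NT-LW and at 49.1 and 38.2 in NT-D, and at 144 and 81.4 in the 4-cell libraries. Here the 2 groups differed at the 1-cell stage, in part through the choice of the set, and lay close in the 2-cell libraries.

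The same order held for the cap-binding protein NCBP3, at 29.3 and 9.84 FPKM in NT-LW and 13.8 and 9.91 in NT-D. CWC25, a spliceosome factor, was at 55.6 and 19.5 FPKM in NT-LW and at 48.05 and 41.45 in NT-D. CCDC93, SELENOS, RPS3A and TTC4, which belong to endosomal recycling, the endoplasmic reticulum, the small ribosomal subunit and the HSP90 machinery, were lower in NT-LW by -1.46, -1.46, -1.39 and -1.30 on the log2 scale, with -0.37 to -0.10 in NT-D. RPS3A could share reads with processed copies. The median of the set was 34.0 and 14.02 FPKM in NT-LW and 20.3 and 17.1 in NT-D. In vivo 10 of 81 tested genes were lower (12.3%), below the 24.6% of all genes. The set was chosen for a small NT-D difference, and the NT-D and in vivo steps had an r of 0.68. Part of this low share can therefore follow from the choice.

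Near-complete losses, from 10 FPKM or more to under 1, were few. There were 3 in NT-D, of which CDCA4 alone had a symbol, and 1 in NT-LW, ATP8. ATP8 (mitochondrial genome, 8959 to 9162), a short subunit of ATP synthase, was at 14.9 and 56.3 FPKM in NT-D and at 20.6 and 0.48 in NT-LW. These values rest on 49 and 208 fragments in NT-D and on 86 and 2 in NT-LW, a ratio of 42.6 for the NT-LW loss with an exact interval of 11.5 to 358. ATP8 overlaps ATP6 and is made on the same message, so the split of reads between them is uncertain. ATP6 stood at 10531 and 14416 FPKM in NT-D and at 6773 and 7475 in NT-LW, and did not share the loss.

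The genes that moved in opposite directions were mainly lower in NT-D and higher in NT-LW, 136 genes (1.96%) of which 88 were in the set on both scales. PPP2R1A (chromosome 6, 57929520 to 57964948), the scaffold subunit of protein phosphatase 2A, stood at 30.4 and 1.99 FPKM in NT-D and at 5.94 and 26.1 in NT-LW. That is 15.3 times lower (12.3 to 19.3) in NT-D and 4.40 times higher (3.87 to 5.02) in NT-LW. CDCA4, a protein linked to cell division, was at 11.5 and 0.43 FPKM in NT-D, the lower value from 5 fragments, and at 4.37 and 24.02 in NT-LW. PIM3, a serine/threonine kinase, was at 31.0 and 3.92 FPKM in NT-D and at 12.2 and 45.5 in NT-LW.

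The clone groups had started apart, with a median 1-cell level of the 136 genes 1.14 log2 units higher in NT-D. Both 1-cell libraries helped to choose the set, so part of this gap follows from the choice. In the 4-cell libraries 97.8% of the 136 genes lay within 1 log2 unit between the clone groups, beside 97.4% of the 6947 genes. PPP2R1A stood at 6.16 FPKM in NT-D and 5.81 in NT-LW, CDCA4 at 1.15 and 1.06, and PIM3 at 0.76 and 1.31. Of the 136 genes, 120 were lower by more than 1 in the NT-LW 4-cell library than in the 2-cell library (88.2%), against 21.6% of all genes. This step starts from the NT-LW 2-cell library that helped to choose the set, so part of this share follows from the choice. In vivo, in libraries not used to choose the set, 93 of 123 tested genes were lower (75.6%) and 1 was higher, against 24.6% and 6.59% of all genes.

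Higher in NT-D alone were 107 genes, of which 105 were tested in both groups (1.51%). SNX7, a sorting nexin of endosomes, was the most abundant named gene, at 403 and 1229.7 FPKM in NT-D and at 907 and 760.4 in NT-LW. MSMO1, an enzyme of cholesterol synthesis, stood at 118 and 368 FPKM in NT-D and at 204 and 206 in NT-LW. POLE2, a subunit of the replicative polymerase epsilon, stood at 8.73 and 28.1 FPKM in NT-D and at 18.9 and 22.8 in NT-LW. In all 3 the NT-D 1-cell library was below the recipient oocyte, which held 652, 264 and 19.1 FPKM. The NT-D 1-cell library helped to choose the set, so part of this follows from the choice.

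TEX35, a gene named from testis expression, went from 6.91 to 35.1 FPKM in NT-D and stood at 11.2 and 14.7 in NT-LW. HBP1, a transcriptional repressor, and CALB1, a calcium-binding protein, were higher in NT-D by 1.80 and 1.72 on the log2 scale, with -0.23 and -0.36 in NT-LW. The set held 628 genes after scaling, of which 95 were in it on both scales. Higher in NT-LW alone were 18 genes, 14 of them tested in both (0.202%), and 8 were in the set on both scales. ZP4, a glycoprotein of the zona pellucida, stood at 309 and 856 FPKM in NT-LW and at 460 and 380.5 in NT-D. TEK, the receptor of angiopoietins, and TTLL3, a tubulin glycylase, were higher in NT-LW by 1.199 and 1.051 on the log2 scale, with -0.42 and -0.35 in NT-D.

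Genes beside the limit of 1 show how close the counted and uncounted ones lie. VGLL3, at 7.53 and 3.26 FPKM, and TMEM170B, at 8.49 and 3.74, lay just inside it in NT-D, and UBE4B, at 4.98 and 1.99, and CNDP2, at 2.59 and 0.80, just outside. In NT-LW, SFSWAP, at 19.8 and 9.37 FPKM, and CDC37L1, at 15.1 and 7.01, lay just inside it. FAIM, at 45.3 and 22.15 FPKM, and NOB1, at 9.73 and 4.37, lay just outside. FAIM and NOB1 were counted as lower in NT-D, so that both clone groups moved alike although the rule counts only 1 of them.

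Among gene lists, the messages of the oocyte programme had opposite signs of the median in the 2 clone groups. Of 21 oocyte factors, 10 were lower in NT-D (47.6%) and 1 was higher, beside 26.5% and 2.45% of all genes. After scaling 5 were lower and 2 higher, beside 9.57% and 12.6% of all genes. In NT-LW 1 was lower (4.76%, beside 4.31% of all genes) and 1 higher, and after scaling 0 and 1. In IV-D 10 of the 21 were lower (47.6%, beside 24.6% of all genes) and 0 higher. In NT-D the list had a median difference of -0.89 and in NT-LW of 0.30, beside medians over all tested genes of -0.53 and -0.07. PADI6, a protein of the subcortical maternal complex, stood at 133 and 25.9 FPKM in NT-D and at 64.9 and 85.4 in NT-LW. ZAR1, a binder of stored messages, was at 38.2 and 9.46 FPKM in NT-D and at 31.1 and 44.0 in NT-LW.

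The oocyte list was not uniform. ZAR1L, a relative of ZAR1, was its only member lower in both groups, at 153 and 43.4 FPKM in NT-D and at 201 and 94.8 in NT-LW. OOSP2, a protein secreted by the oocyte, was the member higher in NT-D, at 2421 and 5854 FPKM, beside 3468 and 3378 in NT-LW. BTG4, the adaptor of message clearance, was at 3874 and 3823 FPKM in NT-D and at 3405 and 4199 in NT-LW, and the 4-cell libraries held 1199 and 782. The defining oocyte markers GDF9, BMP15, ZP2, ZP3, ZP4, ZAR1 and OOEP were present in all 4 libraries, at 9.46 FPKM or more.

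**Figure D4:**
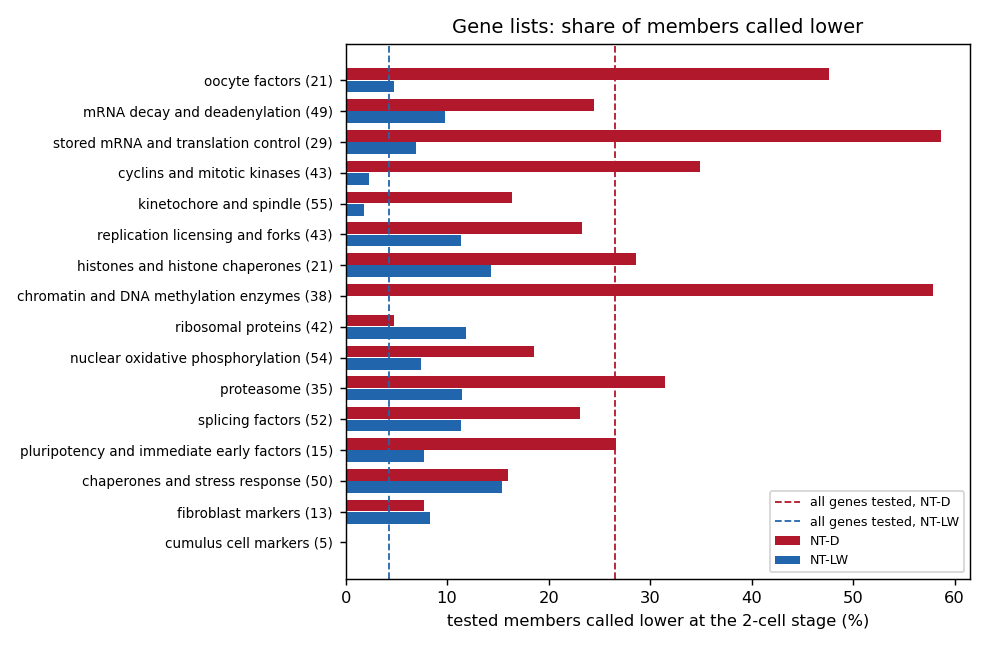
Share of tested members of each gene list that were counted as lower at the 2-cell stage in NT-D (red) and NT-LW (blue), with the number of members tested in NT-D in brackets. Dashed lines mark the share over all tested genes, 26.5% in NT-D and 4.31% in NT-LW, and the longest red bars are those of the stored mRNA, chromatin and oocyte lists.

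The genes of message storage and translation were lower in NT-D more often than all genes. Of 29 tested, 17 were lower (58.6%, beside 26.5%) and 0 higher in NT-D, and 2 were lower and 1 higher in NT-LW. After scaling 8 were lower and 1 higher in NT-D, beside 9.57% and 12.6% of all genes. CPSF4, a subunit of the factor that recognizes the polyadenylation signal, stood at 19.8 and 2.62 FPKM in NT-D and at 6.89 and 8.20 in NT-LW. EIF4E, which binds the cap of the message, was at 7.30 and 13.0 FPKM in NT-D and at 5.30 and 15.3 in NT-LW, higher in NT-LW by the rule and 0.76 on the log2 scale in NT-D. Of 49 tested genes of mRNA decay, 12 were lower (24.5%, beside 26.5% of all genes) and 1 higher in NT-D. In NT-LW 5 of 51 were lower (9.80%, beside 4.31% of all genes) and 3 higher.

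Within mRNA decay, the exosome subunit EXOSC9, the decapping factor EDC3 and the antiproliferative adaptor TOB1 were lower in both groups. EXOSC9 stood at 53.8 and 24.9 FPKM in NT-D and at 56.1 and 23.7 in NT-LW. PABPN1L, the poly(A)-binding protein of oocytes, was instead lower in NT-D (78.7 and 7.04 FPKM) and higher in NT-LW (49.98 and 109), and both 4-cell libraries held under 3 FPKM (2.88 and 2.52). The deadenylase CNOT7 stayed within 0.28 on the log2 scale in both groups, at 320 and 264 FPKM in NT-D and 261 and 295 in NT-LW.

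Chromatin and DNA methylation enzymes were often lower in NT-D and in vivo. Of 38 tested, 22 were lower (57.9%, beside 26.5% of all genes) and 0 higher in NT-D. After scaling 11 were lower and 0 higher in NT-D, beside 9.57% and 12.6% of all genes. In NT-LW 0 were lower and 1 was higher on both scales. In IV-D 17 of 36 were lower (47.2%, beside 24.6% of all genes). KAT2A, a histone acetyltransferase, went from 21.6 to 2.20 FPKM in NT-D and stood at 9.82 and 13.9 in NT-LW. ARID1A, a subunit of the SWI/SNF remodeller, was at 11.096 and 3.997 FPKM in NT-D and at 3.68 and 8.52 in NT-LW.

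Cell cycle messages moved in both directions in NT-D. Of 43 cyclins and mitotic kinases and their partners, 15 were lower (34.9%, beside 26.5% of all genes) and 3 higher in NT-D. After scaling 9 were lower and 6 higher in NT-D, beside 9.57% and 12.6% of all genes. In NT-LW 1 was lower and 2 were higher as deposited. PLK1, the kinase that drives entry into mitosis, stood at 55.4 and 10.4 FPKM in NT-D and at 25.9 and 58.1 in NT-LW. UBE2S, a ubiquitin-conjugating enzyme of the anaphase-promoting complex, was at 207 and 34.3 FPKM in NT-D and at 137 and 302 in NT-LW. Both were lower in NT-D and higher in NT-LW, and the 4-cell libraries held 11.3 and 15.9 FPKM of PLK1 and 109 and 114 of UBE2S.

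CCNB1, cyclin B1, moved the other way in NT-D, at 251 and 522 FPKM, and was at 415 and 576 in NT-LW. MAD2L1, of the spindle checkpoint, was at 94.999 and 228 FPKM in NT-D and at 144 and 160 in NT-LW. SGO2, a guardian of sister chromatid cohesion, was the largest rise of the list in NT-D, at 69.4 and 188 FPKM, beside 103 and 112 in NT-LW. CDK1, the partner of cyclin B, stood at 25.9 and 52.5 FPKM in NT-D and at 37.8 and 55.1 in NT-LW, just under the limit in NT-D at 0.99 on the log2 scale. AURKB, the kinase of the chromosomal passenger complex, was the only member lower in both groups, at 65.3 and 13.8 FPKM in NT-D and 78.4 and 31.8 in NT-LW.

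Kinetochore and spindle genes turned from more lower to more higher members in NT-D with the scale. With FPKM as deposited 9 of 55 were lower (16.4%) and 5 higher, beside 26.5% and 2.45% of all genes. After median-ratio scaling 2 were lower and 20 higher, beside 9.57% and 12.6% of all genes. As deposited, the list had a median difference of 0.02 in NT-D, beside -0.53 over all tested genes. CENPK, a protein of the constitutive centromere network, stood at 91.9 and 319 FPKM in NT-D and at 136 and 205 in NT-LW. CENPA, the histone variant of centromeres, was at 27.9 and 10.3 FPKM in NT-D and at 12.3 and 35.0 in NT-LW. In NT-LW 1 of 55 members was lower (1.82%, beside 4.31% of all genes) and 1 higher, and scaling left these counts unchanged.

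Ribosomal proteins lay below the background share of lower genes in NT-D and above it in NT-LW. Of 42 tested, 2 were lower (4.76%, beside 26.5%) and 2 higher in NT-D. After scaling 1 was lower and 8 higher, beside 9.57% and 12.6% of all genes. In NT-LW 5 were lower (11.9%, beside 4.31%) and 0 higher, with 4 and 0 after scaling, beside 2.96% and 3.2% of all genes. The list's median differences were -0.23 for NT-D, -0.45 for NT-LW and -0.91 for IV-D, where 19 were lower. RPL4 was lower in both clone groups, at 14.5 and 3.82 FPKM in NT-D and 9.61 and 4.19 in NT-LW. Ribosomal protein genes have many processed copies, and their levels are uncertain for that reason.

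The other lists were on either side of the 26.5% of all genes lower in NT-D. Lower and higher members numbered 10 and 2 of 43 for replication, 6 and 0 of 21 for histones and their chaperones, 10 and 0 of 54 for nuclear oxidative phosphorylation, 11 and 0 of 35 for the proteasome, 12 and 0 of 52 for splicing, 8 and 1 of 50 for chaperones and stress, and 4 and 0 of 15 for pluripotency and immediate early factors. In NT-LW, in the same order, the members numbered 5 and 0 of 44, 3 and 1 of 21, and 4 and 0 of 54. Then came 4 and 1 of 35, 6 and 1 of 53, 8 and 0 of 52, and 1 and 2 of 13. The lower shares were 11.4%, 14.3%, 7.41%, 11.4%, 11.3%, 15.4% and 7.69%, each above the 4.31% of all genes lower in NT-LW. They rest on few genes, the last on 1. After scaling the lower members in NT-LW numbered 5, 2, 2, 3, 4, 4 and 0 in the same order, beside 2.96% of all genes. After median-ratio scaling the NT-D counts turned to more higher than lower members for replication (5 and 11), histones (2 and 3), oxidative phosphorylation (3 and 13), the proteasome (2 and 5), splicing (2 and 9) and chaperones (3 and 9). All genes turned too, to 9.57% lower and 12.6% higher, so a turn alone is no trait of a list. PSMD3, a proteasome lid subunit, was lower in NT-D and higher in NT-LW, at 23.6 and 2.67 FPKM in NT-D and at 8.35 and 30.5 in NT-LW.

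Genes that mark fibroblasts, the donor cell type, were present in both clone groups at both stages. The summed level of 18 fibroblast markers was 10.8 FPKM in the recipient oocyte, where 5 were listed at 0, and 162 and 146 FPKM in NT-D and 180.1 and 125 in NT-LW. S100A4, a calcium-binding protein of fibroblasts, was listed at 0 in the oocyte and stood at 63.9 and 76.8 FPKM in NT-D and at 76.1 and 48.2 in NT-LW. Smooth muscle actin ACTA2 was at 39.6 and 30.6 FPKM in NT-D and at 46.9 and 30.7 in NT-LW. S100A4 and ACTA2 together made up most of the sum in each clone library. By the rule 1 of 13 tested markers was lower in NT-D (THBS1) and 1 of 12 in NT-LW (TPM2). These shares were 7.69% and 8.33%, beside 26.5% and 4.31% of all genes.

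In the in vivo embryos the sum of these markers was 97.5 FPKM in the 1-cell library and 11.8 in the 2-cell library. There 10 of 12 tested markers were lower (83.3%, beside 24.6% of all genes). The 8 cumulus cell markers summed to 113 and 153 FPKM in NT-D and to 112 and 124 in NT-LW, of which VCAN, also present in the oocyte at 101.4 FPKM, made up most. The cumulus genes HAS2, PTGS2 and NR5A2 were each under 0.5 FPKM in all 4 clone libraries, and with values as deposited no cumulus marker was counted in either clone group. The part of donor or cumulus RNA in the results was not tested.

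Base composition moved with the NT-D step. Transcripts of 1 RefSeq model per symbol, read from Sscrofa11.1, gave GC content for 5584 of the 6947 genes (80.4%). Across them r between the difference and the GC content was -0.53 in NT-D, 0.15 in NT-LW and -0.36 in IV-D. The genes were divided by GC content into 10 bins of nearly equal size. In the bin with the lowest GC content the median difference was 0.04 in NT-D, -0.05 in NT-LW and 0.03 in IV-D. In the bin with the highest it was -1.26, 0.25 and -0.85, and 66.2% of those genes were lower in NT-D, 2.504% in NT-LW and 43.5% in IV-D. In the bin of 51.4% to 54.7% GC, 40.1% were lower in NT-D. Median GC content was 52.7% for the oocyte list, 51.5% for chromatin, 48.1% for stored mRNA and 42.9% for kinetochore genes. It was 51.4% for ribosomal proteins and for oxidative phosphorylation, with 4.76% and 18.5% lower in NT-D. The part of GC content in the list counts was not tested.

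**Figure D5:**
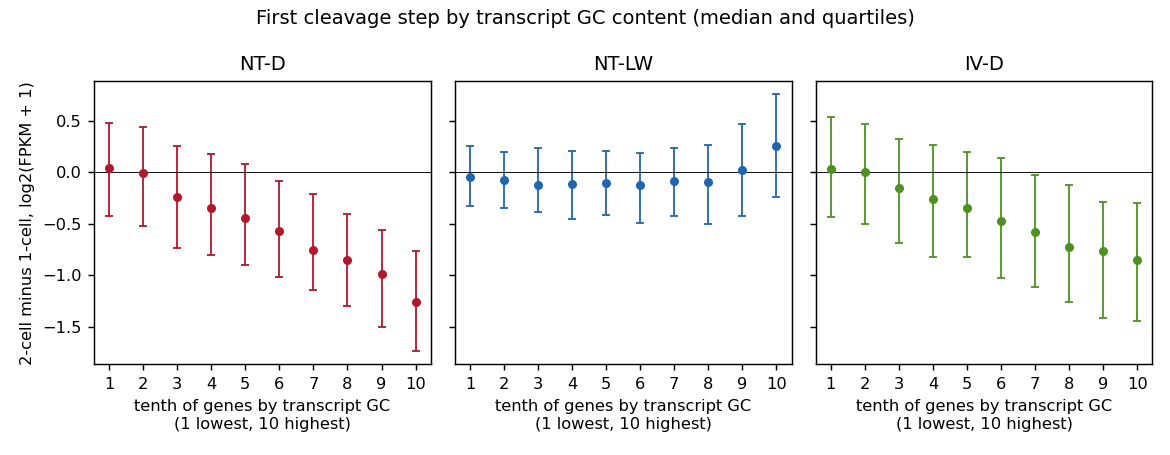
Median 2-cell minus 1-cell difference in log2(FPKM + 1) with quartiles (bars) for 10 bins of the 5584 genes ordered by GC content of the transcript, in NT-D, NT-LW and IV-D. The NT-D medians go from 0.04 in the lowest bin to -1.26 in the highest, the NT-LW medians stay between -0.12 and 0.25, and the IV-D medians go from 0.03 to -0.85.

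Median GC content was 46.4% over all genes, 51.9% in the genes lower in both clone groups and 51.6% in those lower in NT-D alone. For the other gene sets the check of GC content is void, because fewer than 80% of their members had a symbol with a usable transcript. The set lower in NT-D and higher in NT-LW came closest to that limit, with 108 of 136 genes (79.4%), whose median was 61.5%. Single named genes went the other way, as TEX35, higher in NT-D with 55.0% GC, and ATAD5, lower in NT-D with 39.6%. Ends of coding sequences are printed as examples picked after the values were known, so they cannot show how GC content and the step go together. The last 60 coding bases, with the stop codon, are shown for PIM3, UBE2S, PLK1 and MOS, lower in NT-D, and for MAD2L1, CCNB1, CENPK and SNX7, higher in NT-D, with G and C in capitals, 5′ to 3′ on the coding strand.
PIM3: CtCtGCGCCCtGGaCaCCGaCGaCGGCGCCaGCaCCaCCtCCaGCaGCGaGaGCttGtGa
UBE2S: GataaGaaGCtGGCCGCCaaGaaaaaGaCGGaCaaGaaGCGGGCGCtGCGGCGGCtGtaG
PLK1: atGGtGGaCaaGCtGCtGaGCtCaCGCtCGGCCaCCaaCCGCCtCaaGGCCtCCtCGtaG
MOS: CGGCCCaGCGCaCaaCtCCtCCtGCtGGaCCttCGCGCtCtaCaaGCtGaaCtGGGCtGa
MAD2L1: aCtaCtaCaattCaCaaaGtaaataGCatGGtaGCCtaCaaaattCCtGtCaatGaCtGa
CCNB1: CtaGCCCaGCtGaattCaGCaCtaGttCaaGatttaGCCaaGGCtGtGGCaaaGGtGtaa
CENPK: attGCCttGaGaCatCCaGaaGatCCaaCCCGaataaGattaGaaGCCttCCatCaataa
SNX7: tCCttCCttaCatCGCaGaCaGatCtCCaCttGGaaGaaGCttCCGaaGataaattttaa

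These windows lie in single exons of Sscrofa11.1, at chr5:678650-678709 on the minus strand for PIM3, chr6:59565163-59565222 on the minus strand for UBE2S, chr3:22538132-22538191 on the minus strand for PLK1 and chr4:75740553-75740612 on the plus strand for MOS. Those of MAD2L1 (chr8:103935951-103936010) and CCNB1 (chr16:47347721-47347780) are on the plus strand and those of CENPK (chr16:44042219-44042278) and SNX7 (chr4:119162998-119163057) on the minus strand. G and C made up 41, 36, 38 and 38 of the 60 bases in the first 4 and 21, 28, 24 and 24 in the last 4. The genes were picked as examples after their values were known.

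Levels of the GC-rich genes differed between libraries of 1 stage as well. For the bin with the highest GC content the median was 3.48 FPKM in the recipient oocyte, 6.36 and 1.67 at the 1-cell and 2-cell stages of NT-D, 3.99 and 5.45 in NT-LW, and 2.96 and 0.95 in IV-D. The 4-cell libraries held 2.06, 2.42 and 2.28 FPKM. The NT-D 1-cell library thus stood above the oocyte and above the other 1-cell libraries for these genes, and the NT-LW 2-cell library above the other 2-cell libraries. Base composition of a library and the stage of its embryos cannot be told apart with 1 library per condition.

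Where the median of each GC bin was subtracted from every gene of the bin, an alternative added after the data were seen, 717 NT-D genes and 334 NT-LW genes were counted, against 1659 and 379 among the same genes as deposited. Higher NT-D genes numbered 378 in place of 113, so these counts include genes not counted before. The set lower in NT-D alone held 191 genes in place of 904, the set lower in both 14 in place of 84, and the genes moving in opposite directions 28 in place of 109. The set lower in NT-LW alone held 115 in place of 60. PPP2R1A kept differences of -2.16 and 1.72, PIM3 of -1.46 and 1.56, and PLK1 of -1.32 and 1.12 in NT-D and NT-LW. In the set lower in both, U2AF1, PSMA7 and NAT10 came under the limit in NT-D, at -0.90, -0.87 and -0.89. EPSTI1 kept -1.02 and -1.62, MOS -1.63 in NT-D and -0.33 in NT-LW, and MPHOSPH10 0.13 and -1.76. Across the 5584 genes r between NT-D and IV-D was 0.65 after this subtraction, and that between NT-D and NT-LW was -0.02.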

How the data were processed

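Per the labels and the study's methods, SMART-Seq v4 cDNA went into NEBNext Ultra libraries, HISAT2 2.0.4 mapped the read pairs against Sscrofa11.1, and HTSeq 0.9.1 counted them per gene. The authors deposited FPKM values, 1 library per condition. About 5 to 10 cloned embryos were pooled per library. The kit does not mark strand, so reads of overlapping antisense genes cannot be told apart. The table holds 8603 genes and is named as one of differentially expressed genes. The exact rule behind that choice is not given in the sources used here. Gene names were matched for 7371 identifiers, and 6822 symbols had a usable RefSeq transcript in Sscrofa11.1.

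Whole fragments were recovered from the steps of the FPKM values for 100% of genes, with a largest distance of 0.0043 from a whole number. The depths of the 4 clone libraries were 16152374 to 20430720 fragments, of which 83.5% to 86.9% fell in the table. A count of 0 allows 3 fragments, 0.147 to 0.186 FPKM for a gene of 1 kb. Exact binomial intervals on recovered fragments cover counting error only, since amplified cDNA without molecular identifiers does not give independent molecules.

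Differences are log2(FPKM + 1) of the 2-cell minus the 1-cell library, on the scale with the pseudocount of 1, which understates changes of low genes, and folds are ratios of FPKM. A gene was counted past a difference of 1 with 1 FPKM in either library, and "alone" means under 0.5 in the other clone group. No test across conditions was made. Named genes were, among those with a symbol, counted on both scales and at 10 FPKM or more in the higher library of each group counted, the 8 with the largest shared fall and up to 8 with the largest shared rise, the 8 largest falls and up to 6 largest rises of each group alone, and the 4 widest opposite pairs. To these come near-complete losses, members of the oocyte, mRNA decay and cyclin lists, the largest fall and rise of each other list, and genes beside the limit. A gene that the rule names is not reported here. ATP6, the other fibroblast and cumulus markers and the genes whose sequences are printed were singled out after their values were seen. The sets, the 16 gene lists and the rules were chosen with earlier results of these data known. Alternatives were other scalings (median ratio; trimmed mean of M values; a sum of 1000000), pseudocounts, minimum levels and an exact binomial criterion. The script was tested on simulated data: for the NT-D step with 8603 genes, 92% of 2.5-fold falls, 98% of 2.5-fold rises and 100% of 4-fold changes were counted. The changed genes, 50 for each fold and direction, had a mean level of at least 5 FPKM, and the noise was counting error only. Changes of genes under that level and a shift between whole libraries were not simulated. Python 3.11 with numpy, pandas and scipy was used.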

Additional observations from a re-analysis of the deposited data

Results flagged for a closer look

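The 2 clone groups were counted in opposite directions for 139 genes, 136 lower in NT-D and higher in NT-LW and 3 the other way. The difference between the groups was not tested, since each group has 1 library per stage. The NT-D step minus the NT-LW step, on the log2 scale, was 5.72 for ATP8, which rests on 2 fragments in the NT-LW 2-cell library and overlaps ATP6, -5.36 for PPP2R1A, -5.35 for CDCA4 and -4.51 for PIM3. These 4 genes were named only if counted both as deposited and after median-ratio scaling. Their kept direction on the second scale was therefore set by that choice.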

How the results depend on the processing

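Median-ratio scaling turned the NT-D step to 675 lower and 885 higher genes and the in vivo step to 890 and 1067. The sets then held 19 (lower in both), 27 (higher in both), 334 (lower in NT-D alone), 628 (higher in NT-D alone) and 45 genes (higher in NT-LW alone). Trimmed-mean scaling gave 804 and 869 genes in NT-D, 897 and 1023 in vivo, and 33, 29, 401, 609 and 46 in the same sets, with 134 lower in NT-LW alone. Rescaling to a sum of 1000000 gave 807 changed and 613 lower genes in NT-LW, 263 lower in both and 147 lower in NT-LW alone. A pseudocount of 0.1 gave 827 changed genes in NT-LW (479 lower, 348 higher), 190 lower and 20 higher in both, 35 higher in NT-LW alone and 235 in opposite directions. With a limit of 1 in place of 0.5 in the other group, the sets of 1 group alone held 1629 (lower, NT-D), 199 (lower, NT-LW), 162 (higher, NT-D) and 57 genes (higher, NT-LW). A further pair of alternatives was added after the data were seen. Restricting to genes with a transcript left 113 higher in NT-D and 2 higher in both. Removing the medians of GC bins gave 717 changed genes in NT-D (339 lower, 378 higher), 334 in NT-LW (186 lower), 1110 changed and 499 lower in vivo, 14 lower and 16 higher in both, 191 lower and 228 higher in NT-D alone, 58 higher in NT-LW alone and 28 in opposite directions. The cause of these moves beyond scale and gene number was not tested.

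Dropping the minimum of 1 FPKM cannot change a count, because a difference above 1 already needs more than 1 FPKM in 1 library. With a minimum of 5 FPKM every count stayed within 1.5 times. So did every count with the exact binomial criterion, which compares 2 libraries and not conditions. The median of the pluripotency and immediate early factors relative to all genes moved to -0.98 in NT-D and -0.46 in NT-LW with a minimum of 5 FPKM, and to 0.17 in NT-D with no minimum. No other list median relative to all genes moved by 0.25 or more. Genes named from the sets had to be counted after median-ratio scaling too. Among them no counted difference changed sign with the other pseudocount or scalings, while TTLL3 in NT-LW came under the limit at 0.98 with a sum of 1000000. Genes named from the lists were not all held to that choice. In NT-D TCL1A went from -1.22 to -0.59 after median-ratio scaling and to 0.02 with GC medians removed, while PADI6 kept -1.69 and -1.34. Differences under the limit did change sign under median-ratio scaling, as for MPHOSPH10 in NT-D (-0.31 to 0.27) and TEK in NT-D (-0.42 to 0.19). No paired analysis was possible because each condition has 1 library and no test was made. Leaving out a replicate was not possible for the same reason.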
